A study of Mus musculus with 6 samples.

Results

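The genes described here encode glucose-6-phosphate isomerase and the enzymes of glycolysis from aldolase to pyruvate kinase, with isozymes of aldolase and enolase. They were Gpi1, Aldoa, Aldoc, Tpi1, Gapdh, Pgk1, Pgam1, Eno1, Eno2 and Pkm. They were chosen by gene symbol, and all 10 were found among the 15803 genes of the table and among the 12155 genes tested. RNA of the growth plate cartilage of mouse embryos at E18.5 was sequenced as 3 libraries labelled WT and 3 labelled CKO, and the comparison asks whether the genotype of the chondrocytes changes these enzymes. The WT embryos were Hnrnpk fl/fl, so they carried the same loxP sites as the CKO embryos, which were Col2a1-Cre;Hnrnpk fl/fl. Cre was thus driven by the promoter of Col2a1, the main collagen gene of cartilage, and the RNA came from dissected tissue rather than from sorted cells. No source used here says whether a library held 1 embryo or several, and p-values measure the spread between these libraries.

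In glycolysis, aldolase cleaves fructose-1,6-bisphosphate into a pair of triose phosphates, which the later enzymes turn into pyruvate with a net gain of ATP. Several steps have isozymes from separate genes: Aldoa and Eno1 are made in most tissues, Aldoc and Eno2 are best known from the nervous system, and Eno3 and Pgam2 are the muscle forms. The growth plate has few vessels and little oxygen, its chondrocytes depend on glycolysis, and many glycolytic genes are textbook targets of the hypoxia-inducible factor Hif1.

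The reads recovered from the deposited CPM values (reads per gene scaled to the same total in every library) summed to between 1153871 and 1454094 per library, so that 1 read was worth 0.688 to 0.867 CPM. The targeted gene Hnrnpk stood at 842, 955 and 944 CPM in the WT libraries 1 to 3 and at 759, 949.9 and 780.0 CPM in the CKO libraries 1 to 3. These ranges overlapped, so the whole-gene level did not separate the genotypes. The exons between the loxP sites were not analysed on their own. The libraries WT 3 and CKO 2 stood apart from the others of their genotype: a chi-square over genes with at least 20 reads in a pair gave 2.06 per degree of freedom between WT 1 and WT 2 but 8.65 and 9.43 in pairs with WT 3, and 1.29 between CKO 1 and CKO 3 but 13.1 and 14.2 in pairs with CKO 2. All 12 chondrocyte markers were detected, with a summed level of 25344 to 32324 CPM in WT and 5886 to 6626 CPM in CKO, and 10 of the 12 were called lower. The 7 hypertrophic markers summed to 1399.6, 1448 and 4541 CPM in the WT libraries 1 to 3 and to 12329 to 14433 CPM in CKO. Most of that sum was Spp1, which osteoblasts also make and which alone of the 7 was called higher, while Col10a1 and Alpl overlapped between the genotypes. Mmp13 was at 257, 260 and 650 CPM in the WT libraries 1 to 3 and at 2155, 377 and 2301 CPM in the CKO libraries 1 to 3 (limma's adjusted p = 0.118). Pth1r went the other way without overlap, from 51.8 to 58.7 CPM in WT to 20.2 to 39.2 CPM in CKO (limma's adjusted p = 0.0661), and Runx2 also had a negative log2 fold change. Markers of epidermis summed to 30.4 to 56.5 CPM in WT and 214 to 219 CPM in CKO, with 2 of the 4 tested called higher. These 2 were Perp and Sbsn, while Krt10 (limma's adjusted p = 0.484) and Sfn overlapped between the genotypes. The keratins Krt5 and Krt14 were not listed, so whether CKO held more epidermis was not tested. Of the 9 markers of macrophages and osteoclasts all had a positive log2 fold change, with a median of 0.93, and limma called 1 higher. This was Cd68, a lysosomal protein of macrophages, with 9 to 14 reads in WT and 65 to 111 reads in CKO. Their sum overlapped, at 154 to 391 CPM in WT and 296 to 315 CPM in CKO, and the highest WT value came with Lyz2, which was at 270.3 CPM in WT 3. Fewer cells of a type and less RNA per cell cannot be told apart in such tissue, and the part of these shifts in the differences below was not tested.

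Most of these genes have near-identical copies in the mouse genome, mainly processed pseudogenes, and reads that match several places may be dropped or shared in counting. The part of each principal transcript made of 50-base windows that occur in no other annotated gene was therefore computed. It was 100% for Aldoc, 99.7% for Eno2, 92.5% for Tpi1 and 86.1% for Aldoa. It fell from 74.7% for Gpi1 and 65.6% for Pkm over 58.5% for Pgam1 and 32.0% for Pgk1 to 27.8% for Eno1 and 17.5% for Gapdh. The annotation held 177 copies of Gapdh that matched at 90% identity or more along 300 bp or more, between 1 and 8 copies of each other gene except Aldoc and Eno2, and 0 for those 2 genes. The level of Gapdh, at 9 to 27 reads per library, and the levels of Eno1 and Pgk1 are therefore uncertain. The levels of Aldoc and Eno2 do not carry this limit, but their shares and ratios do, since these divide by Aldoa and Eno1, with 6 annotated copies each. The targeted gene Hnrnpk had 2 annotated copies and 59.4% unique windows, so its level given above carries the limit too.

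**Figure D1:**
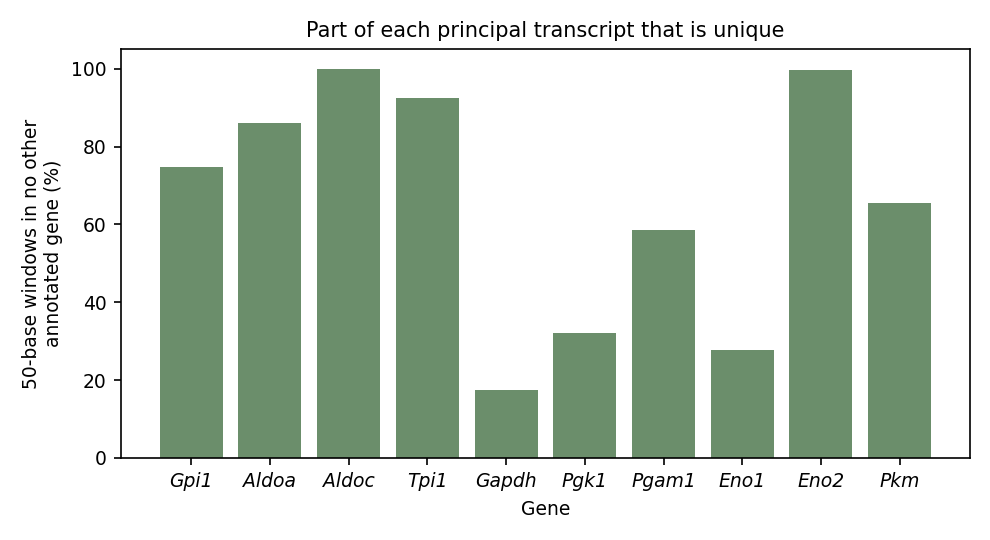
Bars give, for each gene on the x axis, the percent of 50-base windows of its principal transcript that occur in no other gene of the GENCODE M21 annotation. Aldoc (100%) and Eno2 (99.7%) were unique almost throughout, against 27.8% for Eno1 and 17.5% for Gapdh.

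Between the genotypes, 1 of the 10 genes passed the threshold of an adjusted p under 0.05 in limma's test on log2(CPM + 1), and it was lower in CKO: Aldoc. No gene of the 10 was called higher by limma (0 of 10), although Eno1 and Pkm were higher at an unadjusted p under 0.05. Over all 12155 genes tested, limma called 5.78%, with 2.6% lower and 3.18% higher. At the unadjusted threshold 21.3% of all genes passed, with 11.2% higher and 10.1% lower, and 3 of the 10 did. The study's own threshold, a log2 fold change past 1 or -1 with an unadjusted p under 0.05, took 10.4% of all genes, 5.1% of them lower, and among the 10 it took Aldoc alone. EdgeR's quasi-likelihood test called 0 of the 10 higher and Aldoc lower, where it called 9.57% of its genes (4.85% higher, 4.71% lower). DESeq2 called Pkm higher and Aldoc lower, where it called 6.02% of its genes (3.21% higher, 2.81% lower). The log2 fold change was positive in 8 of the 10 genes and negative in Aldoc and Eno2, with a median of 0.28 against 0.013 over all genes, of which 50.8% were positive. The CKO libraries lay above the WT libraries without overlap for Tpi1, Eno1 and Pkm and below them for Aldoc and Eno2, where 27.7% of all genes were separated, 14.5% upward and 13.2% downward. A separation of this kind gives p = 0.1 in an exact permutation test (two-sided), and 3 libraries per genotype cannot give a lower value.

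**Figure D2:**
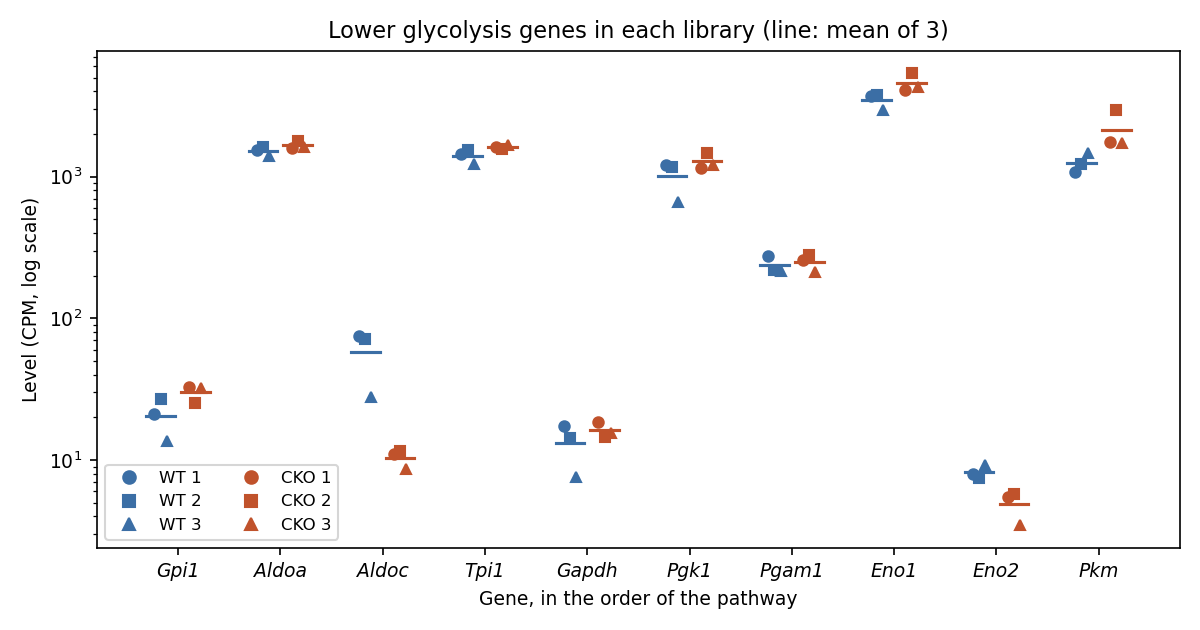
Each point is the level of a gene in a library in CPM on a log axis, with WT in blue, CKO in orange, and lines at the mean of 3 libraries. Aldoc fell from 27.9 to 75.4 CPM in WT to 8.67 to 11.5 CPM in CKO, while the abundant genes Aldoa, Tpi1, Pgk1, Eno1 and Pkm stayed within the same order of magnitude.

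The 10 genes together took 0.936%, 0.967% and 0.799% of the reads in WT 1, 2 and 3 and 1.05%, 1.35% and 1.08% in CKO 1, 2 and 3. The sum was higher in each CKO library than in each WT library, by a ratio of means of 1.29. Without Eno1 and Pkm the sum was 4273 ± 616 CPM (SD, n = 3) in WT and 4864 ± 237 CPM in CKO, a ratio of 1.14. Eno1 contributed 38.6% of the reads of the 10 genes in WT and 39.5% in CKO, and Pkm 14.2% ± 3.57 and 18.2% ± 3.33 (SD, n = 3 each). The share of Aldoa ran the other way, from 16.5% to 17.4% in WT and from 13.2% to 15.1% in CKO, without overlap. Shares of a sum are tied to each other, and that of Aldoa was lower although its own level was not.

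Per kb of principal transcript, Eno1 had the highest level of the 10 genes in both genotypes, at 1717 CPM per kb in WT and 2256 CPM per kb in CKO. It was followed by Aldoa with 1006 and 1100.0 CPM per kb and Tpi1 with 875 and 1003 CPM per kb, whose libraries overlapped in WT but not in CKO. Pgk1 and Pkm came next, at 553 and 516 CPM per kb in WT and at 700.1 and 882 CPM per kb in CKO, and they overlapped with each other in both genotypes. In CKO the libraries of Pkm also overlapped with those of Tpi1. Pgam1, at 134 and 141 CPM per kb in WT and CKO, did not overlap with its neighbours in the order. The lowest group held Aldoc, Gapdh, Gpi1 and Eno2. The place of Gapdh is uncertain, since only 17.5% of its windows were unique and reads that match its copies may be missing. Of the genes in this group, Aldoc stood at 20.9 CPM per kb in WT, where it overlapped with Gapdh and lay above Gpi1 without overlap. In CKO it stood at 3.74 CPM per kb, below both of them without overlap. Eno2 was the lowest of the 10 in both genotypes, at 2.95 and 1.76 CPM per kb. The order near the top depended on the length used. Per kb of all annotated exons, Tpi1 came before Aldoa in CKO, at 586 against 571 CPM per kb, and Pgk1 before Pkm, at 569 against 429 CPM per kb.

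The aldolase genes gave the clearest change of isozymes. Aldoa (ENSMUSG00000030695; GRCm38 chromosome 7, 126795234 to 126800751, minus strand) encodes the muscle type of aldolase, which most tissues use. It was at 1542, 1626 and 1393 CPM in the WT libraries 1 to 3 and at 1590.0, 1771 and 1626 CPM in the CKO libraries 1 to 3, and the genotypes overlapped. Its log2 fold change was 0.13 (standard error 0.14, 95% interval -0.17 to 0.43, limma's adjusted p = 0.633). Aldoc (ENSMUSG00000017390; GRCm38 chromosome 11, 78322968 to 78327781, plus strand) encodes the brain type. It was at 75.4, 71.3 and 27.9 CPM in the WT libraries 1 to 3, which were 104, 95 and 33 reads, and at 11.0, 11.5 and 8.67 CPM in the CKO libraries 1 to 3, which were 16, 16 and 10 reads. All CKO libraries thus lay close together and below every WT library, while WT 3 lay well below the other WT libraries.

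Aldoc fell from 58.2 ± 26.3 CPM (SD, n = 3) to 10.4 ± 1.53 CPM (SD, n = 3), a ratio of means of 5.59. The log2 fold change was -2.26 (standard error 0.37, 95% interval -3.07 to -1.44, limma's adjusted p = 0.00752). The call did not hold without WT 1 (-2.01, limma's adjusted p = 0.0530) or without WT 2 (-2.05, limma's adjusted p = 0.0576). It held in the other 13 of 15 alternatives, with edgeR's quasi-likelihood test (-2.51, adjusted p = 0.00916) and DESeq2 (-2.52, adjusted p = 5.81e-06) among them. Without WT 3 and CKO 2, an alternative chosen after seeing the data, it was -2.79 (limma's adjusted p = 1.44e-05). The chondrocyte markers had a median log2 fold change of -2.30, and their sum was highest in WT 3, the WT library with the lowest Aldoc. Their part in the fall of Aldoc was not tested. Of the 10 markers of neurons and glia, 7 were listed and 4 tested, limma called 0 of the 4 (also 0 at an unadjusted p under 0.05), and their sum was 7.50 to 9.42 CPM in WT and 10.4 to 20.2 CPM in CKO. Snap25, Nefl and Nefm were not listed.

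Since a ratio within a library does not depend on the scaling between libraries, the isozymes were also compared as shares of the reads of their step. Of the reads on Aldoa and Aldoc, Aldoc took 4.66% in WT 1 (95% Wilson interval 3.86 to 5.61), 4.2% in WT 2 (3.45 to 5.11) and 1.96% in WT 3 (1.40 to 2.74). In CKO the share was 0.687% in CKO 1 (0.423 to 1.11), 0.648% in CKO 2 (0.399 to 1.05) and 0.530% in CKO 3 (0.288 to 0.973). No interval of a CKO library reached that of a WT library. These intervals cover counting error alone, because PCR copies could not be told from separate molecules. The log2 ratio of Aldoc to Aldoa was lower in CKO by 5.23-fold (difference -2.39; exact two-sided permutation p = 0.1, 0.15 after Benjamini-Hochberg adjustment over 3 ratios), and lower in 3 of 3 CKO libraries than in any WT library. The summed level of Aldoa and Aldoc was 1579 ± 142 CPM in WT and 1673 ± 96.3 CPM in CKO (SD, n = 3 each), with overlapping libraries.

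**Figure D3:**
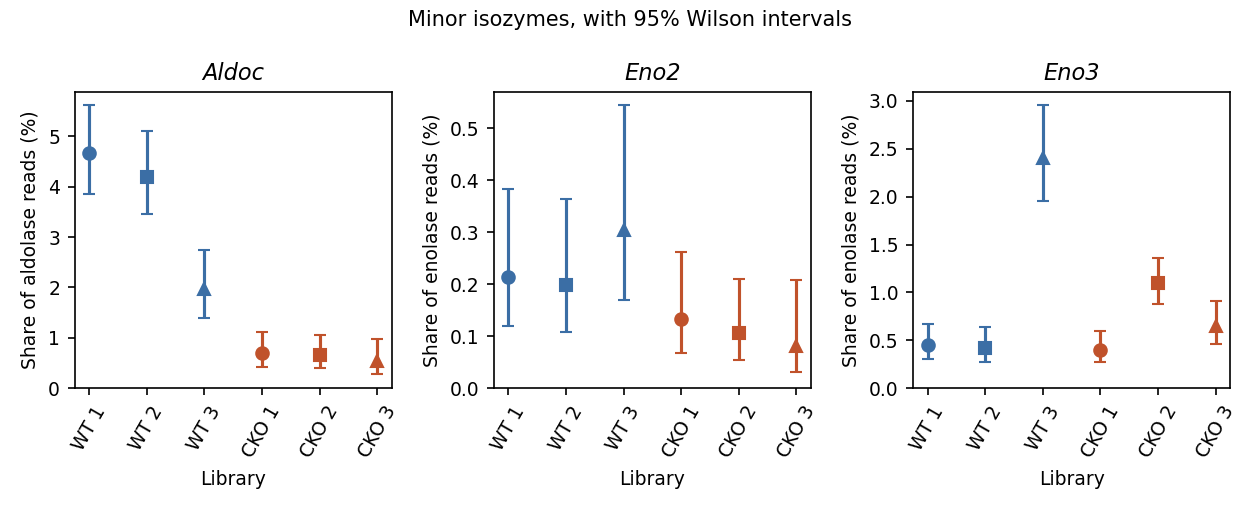
Points give the percent of reads of a step that fall on Aldoc (of aldolase), Eno2 and Eno3 (of enolase) in each library on the x axis, with 95% Wilson intervals. The Aldoc share was 1.96% to 4.66% in WT and 0.530% to 0.687% in CKO, the Eno2 intervals overlapped, and Eno3 was highest in WT 3 (2.41%) and CKO 2 (1.09%).

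Windows of 250 bases before to 50 bases after annotated starts, from RefSeq on GRCm38.p6, were searched for ACGTG on both strands. The reverse strand reads CACGT, and CACGTG would count on both. These letters are a form of the core of the site that Hif1 binds. The letters occurred in 19.6% of all 32851 windows and, counted by gene, in 21.8% of genes. They occurred in 7 of the 16 windows of the 10 genes, which belong to 6 genes: Aldoa, Aldoc, Gapdh, Pgk1, Pgam1 and Pkm. The 2 Aldoa windows with a match overlap and hold the same match, which is thus counted in both. The 10 genes also had more windows per gene than the 27025 genes with a window, so 21.8% is not a like baseline. Windows of Gpi1, Tpi1, Eno1 and Eno2 did not hold ACGTG. Another form of the core, GCGTG, was neither searched for nor marked in any window. The windows below are shown for Aldoc, the gene called lower, and for Pgk1 and Pkm, where the window shown held 2 matches. The other window of Aldoc (chr11:78323948-78324247) and the other window of Pkm (chr9:59656326-59656625) held 0 matches. Aldoc chr11:78322823-78323122 (plus strand) has its match at base 28 after the start. Pgk1 chrX:106186850-106187149 (plus strand) has matches that begin 150 and 131 bases before the start. The Pkm window chr9:59656977-59657276 (plus strand) belongs to an internal start and has matches that begin 75 bases before the start and at base 9 after it. Capitals mark ACGTG on either strand, and a match is a description of the letters, not a binding site.
Aldoc: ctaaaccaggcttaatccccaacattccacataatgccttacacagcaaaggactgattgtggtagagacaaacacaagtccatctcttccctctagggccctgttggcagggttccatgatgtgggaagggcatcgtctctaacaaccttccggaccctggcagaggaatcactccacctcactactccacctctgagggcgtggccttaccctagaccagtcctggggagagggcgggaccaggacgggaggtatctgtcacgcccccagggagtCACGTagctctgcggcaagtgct
Pgk1: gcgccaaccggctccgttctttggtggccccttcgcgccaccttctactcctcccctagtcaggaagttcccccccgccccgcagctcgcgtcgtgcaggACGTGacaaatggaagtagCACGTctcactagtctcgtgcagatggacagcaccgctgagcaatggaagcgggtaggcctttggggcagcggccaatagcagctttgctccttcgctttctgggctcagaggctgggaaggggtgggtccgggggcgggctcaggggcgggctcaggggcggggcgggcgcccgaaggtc
Pkm: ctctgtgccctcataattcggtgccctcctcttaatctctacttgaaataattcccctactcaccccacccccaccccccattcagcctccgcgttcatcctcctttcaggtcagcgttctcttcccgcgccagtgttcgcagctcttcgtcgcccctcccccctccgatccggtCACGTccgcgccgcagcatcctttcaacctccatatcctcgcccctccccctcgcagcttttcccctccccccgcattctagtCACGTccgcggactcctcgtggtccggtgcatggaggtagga

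The genes whose pattern over the 6 libraries was nearest to that of Aldoc were Fgf21, Ahi1 and Cyb5r1, among 4935 named genes that averaged 20 CPM or more. The measure was the root mean square difference of log2(CPM + 1) after each gene was centred on its own mean, and it was 0.16 for Fgf21, 0.19 for Ahi1 and 0.21 for Cyb5r1. Fgf21, which encodes a metabolic hormone, was at 57.3, 66.8 and 30.4 CPM in the WT libraries 1 to 3 and at 11.0, 11.5 and 7.80 CPM in the CKO libraries 1 to 3. Ahi1, which encodes a protein of the primary cilium, ran from 32.1 to 66.0 CPM in WT and from 6.93 to 8.94 CPM in CKO. Cyb5r1, which encodes a cytochrome b5 reductase, ran from 299.9 to 616 CPM in WT and from 89.4 to 122 CPM in CKO. In each of them WT 3 was the lowest WT library, as it was for Aldoc. For Eno1 the nearest were Slc39a6, a zinc transporter, at a difference of 0.053, Npm1, which encodes the nucleolar protein nucleophosmin, at 0.059, and Lsm5, which encodes an RNA-binding Lsm protein, at 0.062. In these 3 genes CKO 2 was the highest library and WT 3 the lowest, as for Eno1. Both sets were picked by pattern over these same libraries, so such likenesses follow from the choice and are no separate result.

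**Figure D4:**
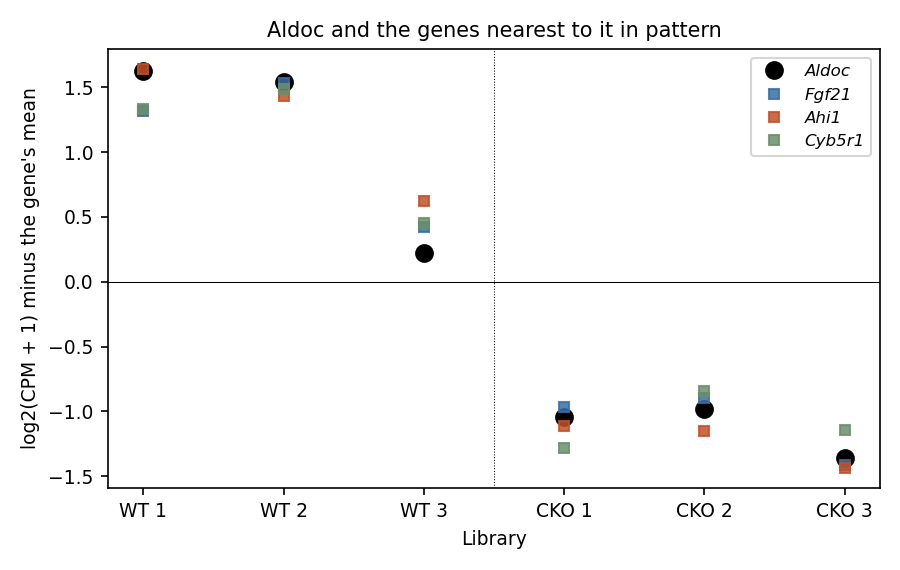
Points give log2(CPM + 1) minus the gene's mean over the 6 libraries (y axis) in each library (x axis), for Aldoc (black) and the 3 genes with the smallest root mean square difference from it (0.16 for Fgf21, 0.19 for Ahi1, 0.21 for Cyb5r1). All of them stood highest in WT 1 and WT 2, lower in WT 3 and lowest in the CKO libraries.

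The genes of the steps around aldolase did not pass the adjusted threshold. Gpi1 (ENSMUSG00000036427; GRCm38 chromosome 7, 34201330 to 34230336, minus strand) encodes the isomerase that turns glucose-6-phosphate into fructose-6-phosphate. It had 29, 36 and 16 reads in WT 1, 2 and 3 and 48, 35 and 37 reads in CKO 1, 2 and 3, or 13.5 to 27.0 CPM in WT and 25.3 to 33.0 CPM in CKO. CKO 2 lay within the WT range, and the log2 fold change was 0.57 (95% interval -0.069 to 1.22, limma's adjusted p = 0.288). Tpi1 (ENSMUSG00000023456; GRCm38 chromosome 6, 124810586 to 124814296, minus strand) encodes triose-phosphate isomerase, which interconverts the products of aldolase. It was at 1449.6, 1534 and 1233 CPM in the WT libraries 1 to 3 and at 1621, 1556 and 1659.6 CPM in the CKO libraries 1 to 3. The genotypes did not overlap, but CKO 2 stood close to WT 2, and its log2 fold change was 0.20 (95% interval -0.11 to 0.52, limma's adjusted p = 0.445). Gapdh (ENSMUSG00000057666; GRCm38 chromosome 6, 125161715 to 125166467, minus strand) encodes the dehydrogenase that makes NADH in this pathway. It was listed at 17.4, 14.3 and 7.60 CPM in the WT libraries 1 to 3 and at 18.6, 14.4 and 15.6 CPM in the CKO libraries 1 to 3, and its log2 fold change was 0.35 (95% interval -0.40 to 1.11, limma's adjusted p = 0.601). Without WT 3, where it was lowest, the value was 0.031. The copies Gm3839 and Gm10358, of more than 99% identity, had 0 to 14 reads per library, and Gapdh with both of them added had a log2 fold change of 0.37.

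Pgk1 (ENSMUSG00000062070; GRCm38 chromosome X, 106187100 to 106203699, plus strand) encodes the kinase of the earliest step of the pathway that yields ATP. It was at 1205, 1162 and 662 CPM in the WT libraries 1 to 3 and at 1153, 1472 and 1209 CPM in the CKO libraries 1 to 3. CKO 1 lay below both WT 1 and WT 2, and WT 3 alone was low. The log2 fold change of 0.38 (95% interval -0.12 to 0.88, limma's adjusted p = 0.362) was 0.10 without WT 3. It was -0.0035 with WT 3 and CKO 2 both left out. Pgam1 (ENSMUSG00000011752; GRCm38 chromosome 19, 41911923 to 41918660, plus strand) encodes the phosphoglycerate mutase of most tissues. At 275, 221 and 216 CPM in the WT libraries 1 to 3 and 259, 279 and 212 CPM in the CKO libraries 1 to 3 it had the smallest log2 fold change of the 10 genes, 0.075 (95% interval -0.30 to 0.45, limma's adjusted p = 0.844). The muscle isozyme Pgam2 had 1 to 10 reads per library. Gapdhs, the sperm form of Gapdh, had 1 read in WT 2 and 0 in the other libraries, and the sperm form Pgk2 and the liver and red cell pyruvate kinase Pklr were not listed.

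Among the enolase genes, Eno1 (ENSMUSG00000063524; GRCm38 chromosome 4, 150236721 to 150248879, plus strand) encodes the alpha form found in most cells and took 97.3% to 99.4% of the enolase reads in every library. It was at 3689, 3778 and 2971 CPM in the WT libraries 1 to 3 and at 4109.8, 5349.8 and 4260.4 CPM in the CKO libraries 1 to 3. All CKO libraries lay above all WT libraries, and CKO 2 was the highest. The log2 fold change was 0.39 (95% interval 0.032 to 0.75, limma's adjusted p = 0.197). Without WT 3 and CKO 2 it was 0.16 and passed the adjusted threshold (limma's adjusted p = 0.0423), in a fit of 2 libraries against 2 that called 17.8% of all genes, 9.77% higher and 8.03% lower. Its near-identical copy Eno1b held 2 to 4 reads per library.

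Eno2 (ENSMUSG00000004267; GRCm38 chromosome 6, 124760053 to 124769673, minus strand), which encodes the gamma form of neurons, had 11, 10 and 11 reads in WT 1, 2 and 3 and 8, 8 and 4 reads in CKO 1, 2 and 3. Its level was 7.50 to 9.29 CPM in WT and 3.47 to 5.77 CPM in CKO, without overlap. Its log2 fold change was -0.67 (95% interval -1.46 to 0.13, limma's adjusted p = 0.320). Eno2 took 0.197% to 0.304% of the enolase reads in WT and 0.0807% to 0.133% in CKO, and the Wilson intervals of the libraries overlapped, from 0.107% to 0.544% in WT and from 0.0314% to 0.263% in CKO. The log2 ratio of Eno2 to Eno1 was lower in CKO by 1.06 (exact two-sided permutation p = 0.1, 0.15 after adjustment over 3 ratios).

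The muscle enolase Eno3 stood at 16.7, 15.8 and 73.5 CPM in the WT libraries 1 to 3 and at 16.5, 59.2 and 27.7 CPM in the CKO libraries 1 to 3. It was thus high in WT 3 and CKO 2, the libraries that stood apart, and the genotypes overlapped. The 16 skeletal muscle markers summed to 329 CPM in WT 3 and 320.5 CPM in CKO 2, against 71.3 to 148 CPM in the other 4 libraries, and limma called 0 of the 12 that could be tested, with 1 at an unadjusted p under 0.05. In CKO 2 the sum rested on Myog, a transcription factor of muscle precursors, at 179 CPM. The fast muscle myosin light chains Mylpf and Myl1 were at 80.3 and 67.6 CPM in WT 3 but at 27.4 and 10.1 CPM in CKO 2. The part of muscle RNA in Eno3, or in the abundant enzymes of the same libraries, was not tested. The log2 ratio of Eno3 to Eno1 differed by -0.24 (exact two-sided permutation p = 0.8) and was 0.57 without WT 3. Eno4 had 0 to 2 reads per library. Together the enolase genes reached 3523 ± 409 CPM in WT and 4614 ± 698 CPM in CKO (SD, n = 3 each), a ratio of 1.31 without overlap of the libraries.

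Pkm (ENSMUSG00000032294; GRCm38 chromosome 9, 59656368 to 59679375, plus strand) encodes pyruvate kinase, the enzyme of the final step, as the M1 and M2 forms that arise from alternative exons. The table counts the gene as a whole, and the forms were not analysed here. It was at 1081, 1228 and 1456 CPM in the WT libraries 1 to 3 and at 1741, 2967 and 1729 CPM in the CKO libraries 1 to 3. All CKO libraries lay above all WT libraries, with CKO 2 far above the other CKO libraries. Unlike Eno1, Tpi1, Pgk1 and Aldoa, each lowest in WT 3 among the WT libraries, Pkm was highest there. Its log2 fold change of 0.74 was the largest positive one of the 10 genes (95% interval 0.25 to 1.22, limma's adjusted p = 0.0802). It passed the threshold with DESeq2 (0.75, adjusted p = 0.0415) and not with edgeR's quasi-likelihood test (0.74, adjusted p = 0.0849). Without CKO 2 the value was 0.48 (limma's adjusted p = 0.0606), and without both WT 3 and CKO 2 it was 0.59 (limma's adjusted p = 2.12e-04).

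**Figure D5:**
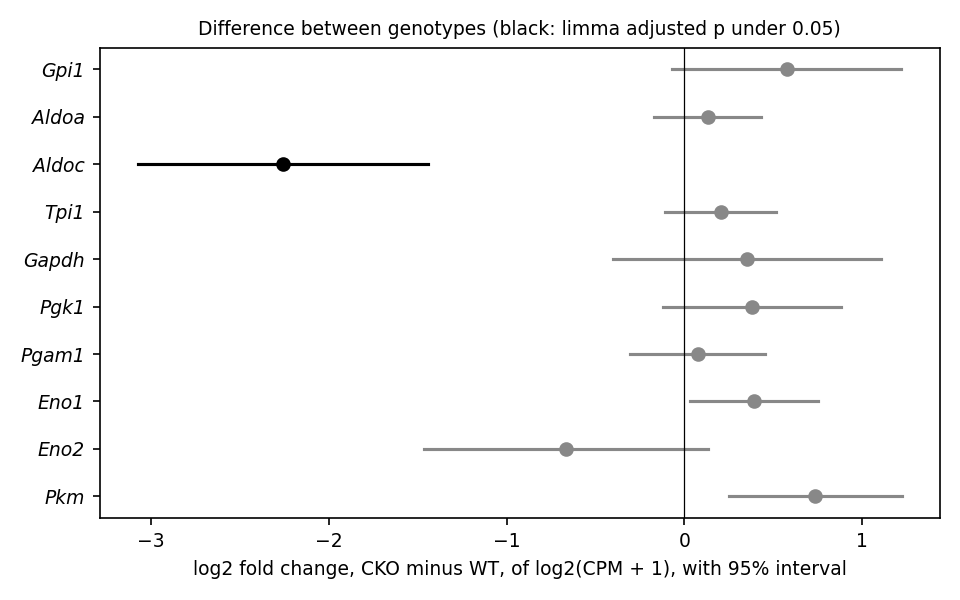
Points give the log2 fold change, CKO minus WT, on the scale of log2(CPM + 1), and lines its 95% interval from limma, for each gene on the y axis. Aldoc (-2.26, black) passed the adjusted threshold, the intervals of Eno1 and Pkm lay above 0 without passing it, and the other 7 intervals included 0.

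Of 28 further genes of glycolysis and its supply and exit (glucose transporters, hexokinases, phosphofructokinases, other isozymes, lactate dehydrogenases and lactate transporters), 25 were listed and 22 tested. Of these, 11 had a positive and 11 a negative log2 fold change, with a median of 0.043 against 0.013 over all genes. Limma, edgeR's quasi-likelihood test and DESeq2 each called 0 of them, and 3 had an unadjusted limma p under 0.05. These were Ldha and Slc16a1, which encode lactate dehydrogenase A and a lactate transporter, with values of 0.37 and 0.91, and Bpgm, which encodes a mutase best known from red blood cells, with -0.60. Ldha and Slc16a1 were separated upward, and Bpgm was 1 of 4 genes separated downward, with Pfkm, Pfkfb3 and Tigar. These 6 were picked with their values in view. Over all genes 27.7% were separated, 14.5% upward and 13.2% downward, and 21.3% had an unadjusted limma p under 0.05. Of 22 genes induced by hypoxia, 21 were tested, with a median log2 fold change of 0.027. Limma called 0 higher and 2 lower, and 2 and 4 passed an unadjusted p under 0.05. Over all genes limma called 3.18% higher and 2.6% lower, and 11.2% and 10.1% passed the unadjusted threshold. The 2 hypoxia genes called lower were Pdk1, which encodes a kinase that holds back pyruvate dehydrogenase, at a difference of -2.28 (limma's adjusted p = 0.0185), and Plod2, which encodes a lysyl hydroxylase of collagen, with -1.30 (limma's adjusted p = 0.0126). Pdk1 rests on few reads, with 11, 15 and 14 in the WT libraries 1 to 3 and 1, 4 and 1 in the CKO libraries 1 to 3.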

How the data were processed

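mRNA of growth plate cartilage was measured in 3 WT and 3 CKO libraries, each matched to its column by the label. CPM per gene and library were deposited by the authors, from a stranded kit. The submitters' processing notes name cutadapt 2.5, HISAT2 and featureCounts 1.6.3, and build and annotation are not given in the sources used here. Multiple-match handling was not stated, which bears on genes with pseudogenes. All values (100%) were whole multiples of 1 read within 0.01 reads, so reads were recovered. The precision rests on 1153871 to 1454094 reads per library.

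With limma (3.58.1, R 4.3.3), log2(CPM + 1) was modelled on genotype in 12155 genes whose mean reached 1 CPM, with no covariate. The prior variance followed the mean level, and p-values were adjusted over all these genes by Benjamini-Hochberg. Changes of genes with few reads come out too small on this scale. Alternatives were a pseudocount of 0.1, no filter, at least 10 reads in every library, TMM scaling, the replicate number as a block, each library left out, edgeR's quasi-likelihood test (4.0.16) and DESeq2 (1.42.0) on recovered reads, the threshold of the study's methods (log2 fold change above 1 or below -1, unadjusted p under 0.05), and copies summed. Leaving out WT 3 and CKO 2 together was added after seeing the data. Peli2, which holds a Gapdh-like stretch, was not summed. Exact permutation tests used SciPy (1.17.1), and copies were found with BLAST (2.17.0). Coordinates came from GENCODE M21 (GRCm38), where 15212 of 15803 identifiers were found. Tests were run on simulated counts before use.

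The rule for named genes took the 10 members, their isozymes and copies, Hnrnpk, further glycolysis genes past the adjusted threshold (0 passed), and the 3 nearest in pattern to Aldoc and to Eno1. Other genes named, among them further glycolysis genes, hypoxia genes and markers, were picked with their values in view. The members and lists were chosen with earlier results of these data known. Lists for other cell types were also summed. The endothelial sum was 8.70 to 18.2 CPM and the erythroid sum 0.725 to 28.9 CPM in all libraries. The osteoblast sum was 927 to 1450.5 CPM in WT and 579 to 1679.6 CPM in CKO. Of its 7 markers tested, 5 had a positive and 2 a negative log2 fold change, with a median of 0.94. Limma called 1 lower, Col1a2. At an unadjusted p under 0.05, Ibsp and Bglap2 were higher and Col1a1 and Col1a2 lower. Ibsp was at 708 and 808 CPM in CKO 1 and CKO 3 but at 83.0 CPM in CKO 2, against 82.5 to 129 CPM in WT. A withheld item is not reported here.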

Additional observations from a re-analysis of the deposited data

How the results depend on the processing

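Over all alternatives the direction held for 8 of the 10 genes. Pgam1 turned to -0.0070 without CKO 2 (range with each library left out -0.0070 to 0.19), and Pgam1 and Pgk1 turned to -0.069 and -0.0035 without WT 3 and CKO 2. No alternative ended an Aldoc call except leaving out WT 1 or WT 2, where the count of these genes called lower went from 1 to 0. DESeq2 gave 1 called higher and the fit without WT 3 and CKO 2 gave 2, with 2 further glycolysis genes, Ldha and Pfkfb1 (named after their values were seen). Pfkfb1 had only 0 to 6 reads per library. Eno2 and Gapdh could not be fitted with at least 10 reads in every library. Over all genes, 387 were called higher and 316 lower. With each library left out in turn these counts ranged from 122 to 658 and from 76 to 560, moving by over 1.5 times for every library but WT 3, and without WT 3 and CKO 2 they were 1188 and 976. The threshold of the study's methods gave 644 and 620. The replicate numbers did not pair the libraries (correlations of same-numbered libraries 0.038, -0.13 and -0.10). With the replicate number as a block the counts were 225 and 160, and Aldoc kept its call (limma's adjusted p = 0.0116). Paired by number, the exact permutation p of the Aldoc to Aldoa ratio was 0.25, the smallest that 3 pairs allow. The Eno3 to Eno1 difference, -0.24 with all libraries, ranged from -0.68 to 0.57 with each left out (0.57 without WT 3, 0.10 without CKO 1) and was 0.22 without WT 3 and CKO 2. The Aldoc to Aldoa difference was between -2.78 and -2.15 with each left out and the Eno2 to Eno1 difference between -1.21 and -0.87. Per kb of exon, Aldoc took 3.23% of aldolase in WT and 0.555% in CKO. Causes of these shifts were not tested. Counting error weighs most on Gapdh, Gpi1 and Eno2, which had 4 to 48 reads per library. Aldoc, with 10 to 16 reads in the CKO libraries, shares this limit there.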
